A study of Mus musculus with 12 samples.

Results

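Ribosome-bound mRNA of 6 metabotropic glutamate receptor genes (*Grm2*, *Grm3*, *Grm4*, *Grm5*, *Grm7* and *Grm8*) and of the 3 Homer scaffold genes (*Homer1*, *Homer2* and *Homer3*) was followed in CA1 pyramidal neurons of wild-type and Fmr1-/y mice. The 9 genes were found by their symbols among the 24079 genes of the deposited count table, and 9 of 9 passed a filter of at least 15 reads summed over all libraries, as did 17823 genes in all. Wild-type mice were Wfs1-CreERT2:RiboTag and mutant mice were the triple transgenic Wfs1-CreERT2:RiboTag:Fmr1 knockout, a line that lacks the fragile X protein FMRP in every cell and not only in the tagged neurons. Both groups were C57BL/6J males aged 2 to 6 months that carried the same Cre and RiboTag alleles and received tamoxifen (100 mg/kg for 3 days) 1 week before the tissue was taken. Each genotype had 6 libraries, and each library came from hippocampi pooled from 4 to 6 mice. In these mice a Wfs1 bacterial artificial chromosome transgene drives the tamoxifen-dependent Cre, which switches ribosomal protein Rpl22 to a form with an HA tag, so that ribosomes and the mRNA on them can be pulled out of whole hippocampus with an HA antibody. The question the comparison addressed was whether the amount of these mRNAs on CA1 ribosomes differed without FMRP.

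Metabotropic glutamate receptors are receptors for glutamate that act through G proteins rather than by opening an ion channel. *Grm5* encodes a group I receptor, which sits mostly on the postsynaptic side, couples to Gq, and through phospholipase C releases calcium from internal stores and raises local protein synthesis. The group II genes *Grm2* and *Grm3* and the group III genes *Grm4*, *Grm7* and *Grm8* encode receptors that couple to Gi and Go, lower cyclic AMP and, at many synapses, reduce transmitter release. Homer proteins bind the tail of the group I receptor through an EVH domain, and the long forms join each other through a coiled coil, which ties the receptor to IP3 receptors and to Shank scaffolds in the postsynaptic density. A short, activity-induced form of *Homer1* lacks the coiled coil and breaks these links. In the hippocampus, long-term depression driven by group I receptors and its dependence on protein synthesis are the classic setting in which loss of FMRP has been studied.

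The short proline-rich stretch that the Homer EVH domain binds is written in the coding sequence as CCNCCNNNNNNNTTT or CCNCCNNNNNNNTTC, in frame (codons for proline, proline, any residue, any residue and phenylalanine). It was searched in frame on the coding strand of the longest coding sequence of each gene (GENCODE M21, GRCm38). Among 21610 coding genes, 1499 (6.94%) held a match, so a match is a description of the letters and not a binding site in itself. The 3 members with a match and 5 partners of the same pathway are shown, each with 6 bases on either side. Binding of Homer to these stretches was not measured. Capitals mark the 15 bases of the match, and codons are counted from 1 at the start codon.
Grm5: ctcactCCACCATCGCCCTTCagggac
Grm2: accgtgCCCCCAGACTTCTTCcaagcc
Grm7: gtggtcCCACCTGATTCCTTCcaagcc
Itpr1: aacaatCCACCCAAGAAATTCagagac
Shank1: ctgcctCCACCCCTGGAGTTTtccaat
Shank3: gtgccaCCCCCTGAAGAGTTTgccaat
Frmpd4: gctgctCCCCCACCTGGCTTTagagac
Dagla: cccaagCCCCCCAGGCTCTTTgcagga

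The *Grm5* match lies at chr7:88130723-88130737 on the plus strand, at codon 1156 of 1203, near the end of the intracellular tail. The matches in *Grm2* (chr9:106651114-106651128, minus strand, codon 186 of 872) and *Grm7* (chr6:110914405-110914419, plus strand, codon 200 of 922) lie early in the coding sequence, in the part that encodes the extracellular ligand-binding domain. *Grm3*, *Grm4*, *Grm8* and the 3 Homer genes held no match in these coding sequences. Among the partners, the match of *Itpr1* is at chr6:108241316-108241330 (plus strand, codon 49 of 2749), that of *Shank1* at chr7:44353581-44353595 (plus strand, codon 1575 of 2167) and the one shown of 2 in *Shank3* at chr15:89549203-89549217 (plus strand, codon 1384 of 1805). Those of *Frmpd4* and *Dagla* are at chrX:167478690-167478704 (minus strand, codon 810 of 1320) and chr19:10247865-10247879 (minus strand, codon 974 of 1044). Each match lies within 1 exon.

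The libraries held 39400980 to 55745464 counted reads in wild type and 43106629 to 65565479 in Fmr1-/y. *Fmr1*, the deleted gene, was counted 1971 to 2608 times per library in wild type. In the mutant group it was at 0 in 5 libraries, and replicate 2 held 1 read, which fits the labels. Levels are given as TMM-normalised CPM, a scale that corrects for depth but not for gene length. CA1 and excitatory markers were high, with summed levels of the 7 genes between 8421 and 10455 CPM in wild type against 8146 to 9686 CPM in Fmr1-/y, while 10 interneuron markers summed to 122 to 254 CPM and 135 to 187 CPM. The 8 astrocyte markers were present at 1315 to 1704 CPM in wild type against 1486 to 2371 CPM in Fmr1-/y, although astrocytes should lack the tagged ribosomes, and no marker gene was at 0. Across all genes, the quasi-likelihood test of edgeR (Benjamini-Hochberg adjusted) called 4 of 17823 genes (0.0224%) at an adjusted p under 0.05, and DESeq2 called 84. In these bulk precipitates fewer cells of a type and less RNA per cell cannot be told apart.

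Per kilobase of exon, *Grm5* stood clearly above every other member on the gene models that GENCODE pairs with RefSeq. Its level was 26.5 ± 1.02 CPM per kb in wild type against 24.0 ± 1.45 CPM per kb in Fmr1-/y (SD, n = 6 for these and the following levels). *Homer2* came next with 13.9 ± 1.55 CPM per kb in wild type and 12.1 ± 1.53 in Fmr1-/y. *Grm7* (11.1 ± 1.04 in wild type), *Homer1* (9.51 ± 0.548) and *Homer3* (9.30 ± 0.817) followed, and neighbours within this trio differed by less than the sum of their SDs. *Grm2* (8.03 ± 1.82) and *Grm3* (6.47 ± 0.759) could likewise not be ordered beyond their spread. *Grm8* (1.59 ± 0.423) and *Grm4* (1.44 ± 0.281) were the lowest, well below the rest and not separable from each other. In Fmr1-/y, *Grm3* reached 7.59 ± 1.70 CPM per kb and lay beside *Homer3* (7.63 ± 0.849) and *Grm2* (7.91 ± 1.49), with the order of the others kept. The order depends on the gene model, since the exons of *Homer2* span 11168 bases over its RefSeq-paired transcripts but 1634 bases in the transcript with the longest coding sequence. Divided by the length of that transcript alone, *Homer2* was at 95.3 ± 10.6 CPM per kb in wild type against 48.0 ± 1.85 for *Grm5* treated the same way. *Homer1* was then at 21.1 ± 1.22, *Grm7* at 14.9 ± 1.39 and *Homer3* at 9.95 ± 0.874. Shares of a summed level per kb given below use the RefSeq-paired models and depend on them too.

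**Figure D1:**
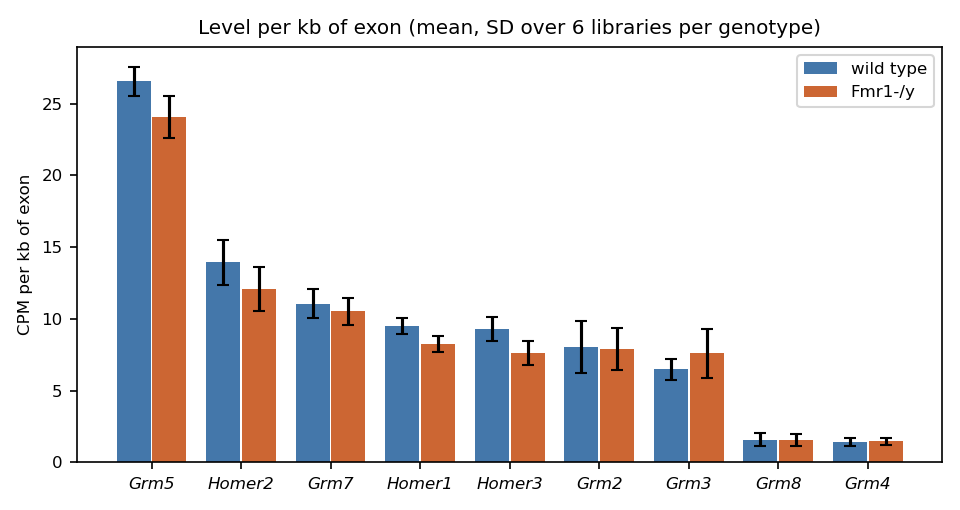
Mean level per kilobase of exon (y axis, TMM-normalised CPM per kb) of the 9 genes (x axis) in wild-type (blue) and Fmr1-/y (orange) libraries, with bars of 1 SD over 6 libraries. *Grm5* is highest at 26.5 CPM per kb in wild type, and *Grm8* and *Grm4* lie near 1.5.

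None of the 9 genes passed the adjusted threshold. Adjusted p ran from 0.349 to 0.989 in the quasi-likelihood test of edgeR (Benjamini-Hochberg adjusted), and DESeq2 called 0 of 9 as well. At an unadjusted p under 0.05, 4 of 9 were lower in Fmr1-/y (*Grm5*, *Homer1*, *Homer2* and *Homer3*) and 0 of 9 were higher, where 3.67% of all genes tested were lower and 4.29% were higher by the same rule. The fold change was below zero for 7 of the 9, and for 8670 of all 17823 genes tested. The median log2 fold change was -0.07 for the members, against 0.0042 over all genes tested. No member separated the 6 libraries of one genotype from the 6 of the other, a pattern seen in 0.623% of all genes. The members were chosen with earlier results of these data known, so these counts are a description.

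**Figure D2:**
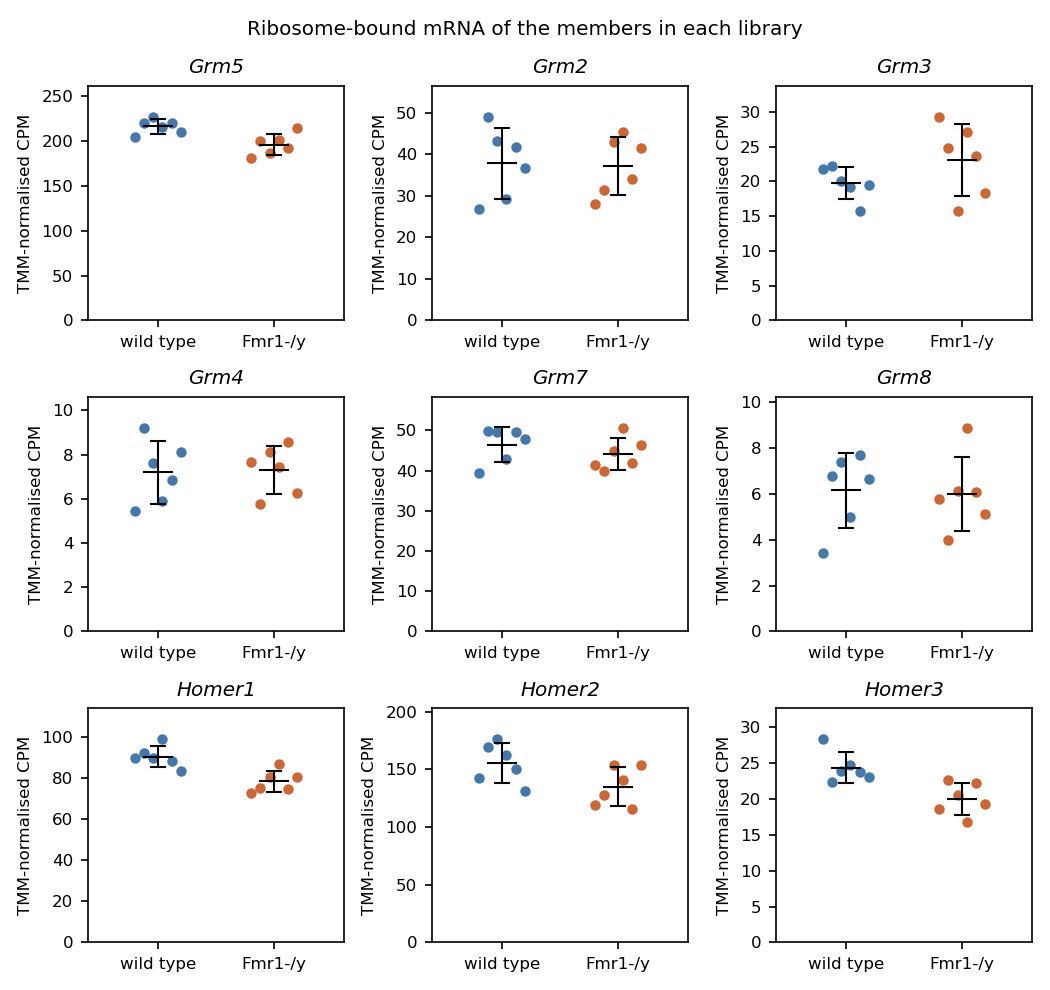
TMM-normalised CPM (y axis, from 0) of each member in the 6 wild-type (blue) and 6 Fmr1-/y (orange) libraries, with the mean and 1 SD in black. For *Grm5*, *Homer1* and *Homer3*, 5 of 6 Fmr1-/y libraries lie below every wild-type library, and in all 9 panels the genotypes overlap.

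The group I receptor gene *Grm5* (chr7:87584168-88134907, plus strand, Entrez 108071) had the most reads of the members, 8271 to 12547 per library. Its level in wild type was 204 CPM at the lowest, 218 at the median and 227 at the highest. In Fmr1-/y it was 181, 196 and 214 CPM. Thus 5 of 6 Fmr1-/y libraries lay below every wild-type library and only replicate 6, the highest of its group, overlapped. The level in Fmr1-/y was 90.6% of wild type (95% interval 83.7% to 98.1%), a log2 fold change of -0.14 (SE 0.054, unadjusted p = 0.0175). After Benjamini-Hochberg adjustment in edgeR's test the p was 0.496. *Grm5* made up 64.9% ± 2.42 of the reads of the 6 receptor genes in wild type and 62.5% ± 2.32 in Fmr1-/y (SD, n = 6), and 48.3% ± 2.38 and 45.4% ± 2.47 of their summed level per kb. Both pairs of shares overlapped.

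*Homer1*, which encodes both the long scaffold and the short activity-induced form, lies at chr13:93299635-93405129 on the plus strand (Entrez 26556). Its level was 83.5, 89.8 and 99.3 CPM at the lowest, median and highest wild-type library. In Fmr1-/y it was 72.7, 78.0 and 86.8 CPM. Here too 5 of 6 Fmr1-/y libraries were below every wild-type library, and replicate 4 of Fmr1-/y exceeded only replicate 6 of wild type. The level was 86.7% of wild type (95% interval 79.3% to 94.8%), a log2 fold change of -0.21 (SE 0.061, unadjusted p = 0.00368, place 188 among all genes by p), and the adjusted p in edgeR's test was 0.349. GENCODE lists 11 coding transcripts of *Homer1* with 540 to 1110 coding bases, and counts per gene sum the short and long forms, so which of them carries the difference cannot be read from these values.

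*Homer2* (chr7:81600481-81707527, minus strand, Entrez 26557) supplied most Homer reads, 57.4% ± 2.45 in wild type and 57.7% ± 2.43 in Fmr1-/y (SD, n = 6), and 42.5% ± 2.90 and 43.1% ± 3.09 of their summed level per kb. Its level was 131, 157 and 177 CPM at the lowest, median and highest wild-type library, and 115, 134 and 154 CPM in Fmr1-/y. The groups overlapped more than for *Homer1*, with 3 of 6 Fmr1-/y libraries below every wild-type library. The level was 86.9% of wild type (95% interval 76.4% to 98.8%), a log2 fold change of -0.20 (SE 0.088, unadjusted p = 0.0339), and the adjusted p in edgeR's test was 0.575. This unadjusted p passed 0.05 in the full set of libraries but not without Fmr1-/y replicates 1, 2 or 5 or wild-type replicates 2, 3 or 4, each left out alone.

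*Homer3* (chr8:70282827-70294361, plus strand, Entrez 26558) had the largest fold change in size among the members. It stood at 22.4, 23.7 and 28.4 CPM in the lowest, median and highest wild-type library, and at 16.7, 19.9 and 22.6 CPM in Fmr1-/y. Only Fmr1-/y replicate 2 exceeded a wild-type library, the lowest one, and wild-type replicate 1 was the highest of all 12. The level was 82.1% of wild type (95% interval 72.2% to 93.3%), a log2 fold change of -0.28 (SE 0.088, unadjusted p = 0.00464), and the adjusted p in edgeR's test was 0.365. Exons of *Homer3* overlap those of *Ddx49* on the opposite strand, and the counting used the strand of the reads. Exons of *Grm2*, *Grm7* and *Homer2* likewise overlap those of antisense genes.

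Summed over the 3 genes, Homer mRNA was 270 ± 20.5 CPM in wild type (237 to 291) and 234 ± 20.4 CPM in Fmr1-/y (210 to 255; SD, n = 6). The proportions among the 3 genes were alike in the libraries, with *Homer1* at 33.5% ± 1.58 of Homer reads in wild type and 33.7% ± 1.71 in Fmr1-/y, and *Homer3* at 9.05% ± 1.10 and 8.63% ± 1.40. For each *Grm5* read there were 1.25 ± 0.0739 Homer reads in wild type and 1.19 ± 0.0940 in Fmr1-/y, ranges that overlapped. Neither the sum nor the ratio was tested, and no Homer gene passed the adjusted threshold.

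Of the group II genes, *Grm2* (chr9:106643095-106656082, minus strand, Entrez 108068), a presynaptic autoreceptor gene at many synapses, varied widely within genotypes. It ranged over 26.7, 39.3 and 49.1 CPM in wild type (lowest, median, highest) and 28.0, 37.8 and 45.3 CPM in Fmr1-/y. The Fmr1-/y libraries lay entirely inside the wild-type range. The level was 98.5% of wild type with a 95% interval from 79.6% to 121.9%, and edgeR's test gave an adjusted p of 0.989.

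*Grm3* (chr5:9485541-9725170, minus strand, Entrez 108069), which neurons and astrocytes both express, was the member with the highest ratio. It was at 15.7, 19.7 and 22.2 CPM in the lowest, median and highest wild-type library and at 15.8, 24.2 and 29.3 CPM in Fmr1-/y. In Fmr1-/y, 4 of 6 libraries exceeded every wild-type library, while replicates 3 and 6 were at 15.8 and 18.3 CPM. The level was 117.3% of wild type (95% interval 96.6% to 142.4%), a log2 fold change of 0.23 (SE 0.133, unadjusted p = 0.102), and the adjusted p in edgeR's test was 0.724. The value depended on single libraries, at 0.15 without Fmr1-/y replicate 1 and 0.32 without replicate 3. Without Fmr1-/y replicate 3 or without replicate 6 the unadjusted p was under 0.05, and with an astrocyte marker score as a covariate the log2 fold change was -0.025.

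The group III genes showed no difference beyond their spread. *Grm7* (chr6:110645581-111567230, plus strand, Entrez 108073), which encodes a receptor of presynaptic active zones, was at 39.3, 48.6 and 49.7 CPM in wild type (lowest, median, highest) and 40.0, 43.3 and 50.7 CPM in Fmr1-/y. It was estimated at 95% of wild type with a 95% interval of 84.7% to 106.6% (adjusted p = 0.887 in edgeR's test). *Grm4* (chr17:27422387-27521403, minus strand, Entrez 268934) was at 5.47, 7.22 and 9.22 CPM in wild type against 5.75, 7.55 and 8.58 CPM in Fmr1-/y. With 240 to 560 reads per library, its interval of 82.8% to 124.8% around 101.6% of wild type was wide (adjusted p = 0.988 in edgeR's test).

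*Grm8* (chr6:27275119-28135178, minus strand, Entrez 14823) was the least precise member, at 184 to 426 reads per library. It lay at 3.42, 6.69 and 7.70 CPM in wild type, against 4.00, 5.91 and 8.88 CPM in Fmr1-/y. Its level was 97.5% of wild type, with an interval of 73.0% to 130.4% and an adjusted p of 0.988 in edgeR's test. The coefficient of variation within wild type was 26.5% for *Grm8* and 22.7% for *Grm2*, against 3.86% for *Grm5* and 5.76% for *Homer1*, and a log2 difference as large as that of *Homer3* lies within the 95% intervals of *Grm8* and *Grm2*.

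**Figure D3:**
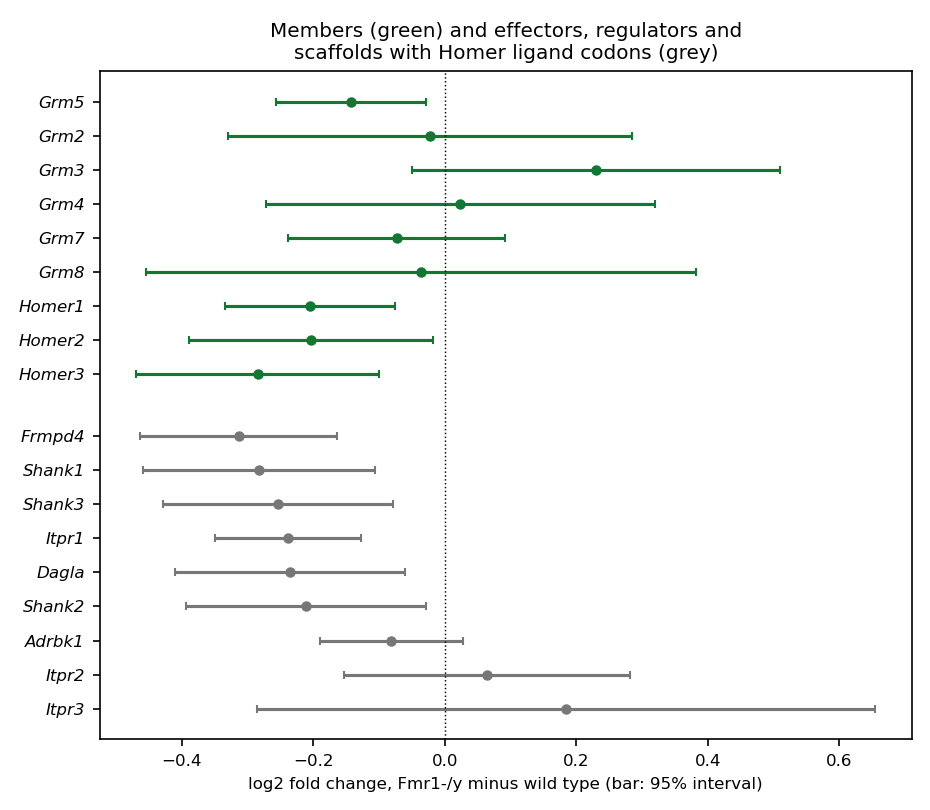
Log2 fold change of Fmr1-/y against wild type (x axis) with its 95% interval from edgeR's quasi-likelihood fit for the 9 members (green) and the 9 effectors, regulators and scaffolds with Homer ligand codons (grey); *Adrbk1* is the name the count table uses for *Grk2*. The intervals of *Grm5*, *Homer1*, *Homer2* and *Homer3* lie below zero before adjustment, as do those of 6 grey genes.

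Around the receptors, 57 genes of the pathway in 5 lists were measured and 57 of 57 passed the filter on low counts. None passed the adjusted threshold in the quasi-likelihood test of edgeR (Benjamini-Hochberg adjusted) (smallest adjusted p 0.147). At an unadjusted p under 0.05, 13 were lower and 1 was higher in Fmr1-/y, beside the 3.67% and 4.29% of all genes tested. The 5 lists were chosen with earlier results of these data known, so these counts are a description and not independent support. The median log2 fold change of the 57 genes was -0.08. Of the 57, 41 were below zero, as were 8670 of all 17823 genes tested. The genotypes did not overlap for 3 of the 57, *Dlgap3*, *Itpr1* and *Frmpd4*, the same 3 that DESeq2 called, and 0.623% of all genes did not overlap. The paper had already named these 3 as downregulated in the same libraries.

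The list of postsynaptic scaffolds around Homer had the lowest median of the 5 lists, at -0.19, with 8 of 8 genes below zero. Only its Shank genes held Homer ligand codons, and the Dlgap genes and *Dlg4* did not. At an unadjusted p under 0.05, 5 of 8 were lower, beside 3.67% of all genes tested. Among tested genes of at least 2400 coding bases that share was 11% of 627 with Homer ligand codons and 7.37% of 2699 without. *Dlgap3*, which links PSD-95 to Shank, was at 215 ± 8.02 CPM in wild type against 169 ± 17.7 CPM in Fmr1-/y (SD, n = 6), a log2 fold change of -0.35 (SE 0.067). Its adjusted p was 0.147 in edgeR's test and 0.00196 in DESeq2. The 3 Shank genes, whose products hold Homer at the postsynaptic density, had log2 fold changes of -0.28 (*Shank1*, unadjusted p = 0.00359), -0.25 (*Shank3*, 0.00691) and -0.21 (*Shank2*, 0.0257). *Dlg4*, which encodes PSD-95, was at -0.16 (unadjusted p = 0.0472). The smallest adjusted p among these 4 was 0.342 in edgeR's test.

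Among the 14 effectors downstream of Gq, 5 were lower at an unadjusted p under 0.05, beside 3.67% of all genes tested. The median log2 fold change of the 14 was -0.13. *Itpr1*, the main IP3 receptor of neurons, which Homer ties to the group I receptor, was at 569 ± 31.1 CPM in wild type against 482 ± 16.2 CPM in Fmr1-/y (SD, n = 6). That log2 fold change was -0.24 (SE 0.052), with an adjusted p of 0.181 in edgeR's test and 0.00419 in DESeq2. *Dagla*, which makes the endocannabinoid 2-arachidonoylglycerol, had -0.24 (unadjusted p = 0.0110) and *Prkca*, a protein kinase C, -0.17 (unadjusted p = 0.0275). The other two were scarce, the channel gene *Trpc5* (-0.41, 7.90 CPM in wild type) and the phospholipase gene *Plcb2* (-0.50, 1.98 CPM).

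The remaining lists had medians nearer zero. The median of the 15 receptor regulators and partners was -0.025, and 2 were lower at an unadjusted p under 0.05, beside 3.67% of all genes tested. They were *Frmpd4*, whose product binds group I receptors and Homer (63.7 ± 4.28 CPM in wild type against 51.3 ± 4.55 CPM in Fmr1-/y, SD, n = 6), and *Elfn2*, an adhesion protein that binds group III receptors from across the synapse (log2 fold change -0.22, unadjusted p = 0.0211). *Frmpd4* had a log2 fold change of -0.31 (SE 0.071) and an adjusted p of 0.181 in edgeR's test and 0.0101 in DESeq2. Of 6 G protein alpha subunit genes, 0 had an unadjusted p under 0.05 and the median was -0.031.

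Among 14 genes of receptor-driven depression and local translation the median was -0.07. The cytoskeletal *Map1b* was lower (-0.22, unadjusted p = 0.0110) and the kinase gene *Mapk3* higher (0.23, unadjusted p = 0.0347). *Arc*, the immediate early gene that removes AMPA receptors from synapses, had -0.25 with an unadjusted p of 0.0571.

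Of the 57 pathway genes, 11 held Homer ligand codons and 46 did not. By unadjusted p under 0.05, 6 of the 11 were lower (*Itpr1*, *Dagla*, *Frmpd4*, *Shank1*, *Shank2* and *Shank3*, 5 of them printed above) and 7 of the 46, with median log2 fold changes of -0.21 and -0.07. The others with a match included *Itpr2*, *Itpr3*, *Grk2* and *Mtor*. Genes with a match were longer, since 627 of 1289 tested genes with one and 2699 of 14351 without one had at least 2400 coding bases. By the same rule 7.14% of the 1289 were lower and 3.39% of the 14351, and among the longer genes these shares were 11% of 627 and 7.37% of 2699, with medians of -0.04 and -0.03. The cut at 2400 bases was chosen after the values were seen, and these shares were not tested.

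Marker lists of the cells in the hippocampus were compared in the same way, and their part in the values above was not tested beyond the measurements that follow. None of these markers passed the adjusted threshold in edgeR's test, and the summed level of every list overlapped between the genotypes. Over all 17823 genes tested, 3.67% were lower and 4.29% higher at an unadjusted p under 0.05. At any p, 8670 of them were below zero and 9153 above. The 8 astrocyte markers were all above zero in log2 fold change (median 0.22, 4 of 8 at an unadjusted p under 0.05), as were the 6 endothelial markers (median 0.33, 3 of 6). Endothelial markers summed to 31.5 to 45.9 CPM in wild type against 40.6 to 57.9 CPM in Fmr1-/y. The 7 CA1 markers were all below zero (median -0.11, 2 of 7 at an unadjusted p under 0.05), among them *Wfs1*, the gene whose promoter drives the Cre (-0.27, unadjusted p = 0.00827).

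Of the 8 oligodendrocyte markers, 6 were below zero (median -0.16), and 1, *Cldn11*, which encodes a tight junction protein of myelin, had an unadjusted p under 0.05 (0.0173). The 10 interneuron markers (median -0.08) and the 8 microglia markers (median 0.05) had 0 at an unadjusted p under 0.05. Among 6 dentate granule markers (median -0.05) *Plk5* was higher (unadjusted p = 0.00998), and among 6 CA2 and CA3 markers (median -0.036) *Lct* was lower (unadjusted p = 0.00638). Summed levels were 607 to 897 CPM in wild type against 549 to 800 CPM in Fmr1-/y for oligodendrocytes, and 130 to 150 CPM against 134 to 175 CPM for microglia. They were 77.4 to 101 CPM against 76.1 to 88.6 CPM for dentate granule cells, and 257 to 332 CPM against 208 to 282 CPM for CA2 and CA3.

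Across the 12 libraries the log2 CPM of each member was set against the score of 7 marker lists, the mean log2 CPM over each list, which made 63 relations tested by permutation. The endothelial list, which had the highest median log2 fold change of the marker lists, was not among these 7. Its relation to the members was not tested. After Benjamini-Hochberg adjustment 0 of 63 had a p under 0.05, while 10 had an unadjusted permutation p under 0.05 for Pearson's r. The strongest was *Grm3* with the astrocyte score (Pearson r = 0.777, permutation p = 0.00207, adjusted 0.130; Spearman rho = 0.657, permutation p = 0.0245, adjusted 0.523). It was 0.647 without the 2 libraries farthest from the median score, 0.711 within wild type and 0.744 within Fmr1-/y. *Grm5* went the other way (r = -0.676, permutation p = 0.0128, adjusted 0.251; rho = -0.615, permutation p = 0.0364, adjusted 0.523), with -0.470 without those 2 libraries, -0.626 within wild type and -0.428 within Fmr1-/y. *Homer1* and *Homer2* had r = -0.576 and -0.592 with the astrocyte score over all libraries, but -0.0265 and -0.269 without the 2 farthest libraries, so these relations rested on them. Within wild type r was 0.379 for *Homer1* and -0.158 for *Homer2*, and within Fmr1-/y -0.542 and -0.545. An r over all libraries also holds any difference between the genotypes. *Homer3* with the CA1 score had r = 0.686 (permutation p = 0.0148, adjusted 0.251; rho = 0.392, permutation p = 0.209, adjusted 0.723). It was 0.0633 without the 2 libraries farthest in that score, so the r over all libraries rested on them as well. With all libraries kept it was 0.468 within wild type and 0.690 within Fmr1-/y. *Homer2* with the CA2 and CA3 score had r = 0.627 (permutation p = 0.0298, adjusted 0.296; rho = 0.678, permutation p = 0.0185, adjusted 0.523). It was 0.833 without the 2 farthest libraries, 0.689 within wild type and 0.540 within Fmr1-/y. *Grm3* with that score had r = -0.675 (permutation p = 0.0159, adjusted 0.251; rho = -0.503, permutation p = 0.0986, adjusted 0.621) and -0.439 without the 2 farthest libraries, with opposite signs within wild type (0.532) and Fmr1-/y (-0.839). The other relations among the 10 were *Grm7* with the astrocyte score (r = -0.565), *Grm8* with the CA1 score (-0.587) and *Homer3* with the CA2 and CA3 score (0.583). Without the 2 libraries farthest in each score they were -0.332, 0.0518 and 0.647 in that order, so that of *Grm8* over all libraries rested on those 2. With all libraries kept, r of *Grm8* with the CA1 score was -0.406 within wild type and -0.934 within Fmr1-/y. With the astrocyte score as a covariate in the fit, *Homer1* and *Homer3* still had an unadjusted p under 0.05, with log2 fold changes of -0.18 and -0.29, *Grm5* (-0.10) and *Homer2* (-0.11) did not, and *Grm3* was at -0.025. In that fit 4 rather than 13 pathway genes were lower at an unadjusted p under 0.05. The 8 astrocyte markers themselves were all above zero in log2 fold change, so the fit cannot tell the score and the genotype apart. *Homer3* had -0.28 without the covariate and -0.29 with it, while its adjusted p in edgeR's test went from 0.365 to 0.76. The fold changes of the other 3 moved toward zero, *Homer1* from -0.21 to -0.18, *Grm5* from -0.14 to -0.10 and *Homer2* from -0.20 to -0.11. A part of astrocyte RNA in these values was not tested.

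**Figure D4:**
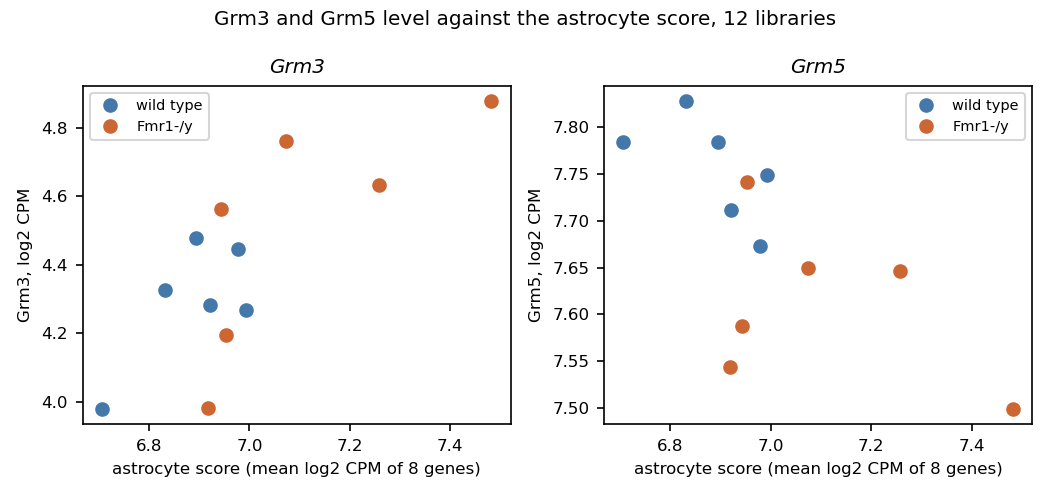
Level of *Grm3* (left) and *Grm5* (right), in log2 CPM on the y axes, against the mean log2 CPM of 8 astrocyte markers on the x axes, in 6 wild-type (blue) and 6 Fmr1-/y (orange) libraries. *Grm3* is higher and *Grm5* lower where the astrocyte score is higher, with r = 0.777 and -0.676, neither past the adjusted threshold.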

How the data were processed

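RNA bound to HA-tagged ribosomes was sequenced from 12 libraries (single reads of 50 bases). The authors aligned the reads to mm10 (GRCm38) with TopHat2 2.1.1 and Bowtie2 2.2.8, counted them per gene with HTSeq 0.6.1p1 in union mode by strand, and deposited raw counts of 24079 genes, not normalized. Reads that fit several genes are not counted, which can lower genes with close copies.

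The members and the marker and pathway lists were chosen with earlier results of these data known. Genes with at least 15 reads in total were tested with edgeR 4.0.16 in R 4.3.3 (TMM, quasi-likelihood test, no block or covariate, Benjamini-Hochberg adjustment over 17823 genes, threshold 0.05), after a test on simulated counts. The study used DESeq2, here an alternative (1.42.0). Standard errors are the fold change over the square root of F, and log2 CPM has a prior count of 2. Labels do not say that replicates pair across genotypes, and p-values measure the spread between pools of mice. Alternatives were other size factors, library totals only, DESeq2, limma 3.58.1 voom, other filters (at least 1 read in total, 10 in every library, filterByExpr), robust fitting, a replicate block, an astrocyte covariate, each library left out and a threshold of 0.1. Named genes were the members, pathway genes with an unadjusted p under 0.05 or Homer ligand codons, *Fmr1*, and the 3 genes nearest each member, of which some are not reported here. Genes named outside that rule (*Arc*, *Wfs1*, *Ddx49*, *Cldn11*, *Plk5* and *Lct*) were chosen after their values were seen. Permutation tests used 100000 resamples and were two-sided.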

Additional observations from a re-analysis of the deposited data

How the results depend on the processing

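None of the 9 members passed the adjusted threshold under any of the 22 alternatives tried for each. *Grm5* (log2 fold change -0.17 to -0.10), *Homer1* (-0.24 to -0.18), *Homer2* (-0.25 to -0.11) and *Homer3* (-0.32 to -0.24) kept their direction in all of them. The count of genes called over the whole table was 4 with edgeR's test, 84 with DESeq2, 1 where every library had to hold at least 10 reads (a filter that removes *Fmr1*), and 2 to 6 when single libraries were left out. The fold changes of 5 members turned in direction under at least 1 alternative. *Grm2* was at 0.0019 with library totals only and 0.23 with the astrocyte covariate, and between -0.11 and 0.067 when libraries were left out. *Grm4* was between -0.046 and 0.11, and *Grm8* between -0.18 and 0.056, when libraries were left out. With the astrocyte covariate *Grm3* was at -0.025, from 0.23 without it, *Grm7* at 0.012 and *Grm8* at 0.16. The cause was not tested. The replicate block left 4 genes called and 4 of 9 members lower at an unadjusted p under 0.05. Same-numbered libraries had a mean correlation of 0.0246 in their deviations from the group means (-0.0809 to 0.0899), and 0 of 6 pairs correlated best with their own number. Over genes above a mean log2 CPM of 1 the mean was 0.0994 (-0.243 to 0.348), and above 5 it was 0.155 (-0.443 to 0.599) with 1 of 6 pairs best with its own number. Some pairs were below zero in each set, so the numbers were not taken to pair the pools. The members at an unadjusted p under 0.05 were 3 with library totals only and 2 with the astrocyte covariate, which cannot be told apart from genotype. At 184 to 560 reads per library, *Grm4* and *Grm8* limit any statement to changes larger than their intervals.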

Other observations

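The genes whose log2 CPM followed each member most closely over the 12 libraries were looked up among 13767 genes with a mean over 1 CPM, as a description without a test. All points share depth and the mix of cells in each library. For *Grm3* they were *Bgn* (Pearson r = 0.918), which encodes the matrix proteoglycan biglycan, *Slc1a3* (0.918), the astrocyte glutamate transporter, and *Luzp2* (0.904). For *Homer2* they were *Dyrk2* (0.973), *Ptprj* (0.968) and *Shank1* (0.964), the last a scaffold of the Homer network. For *Homer1* they were *Sbf2* (0.940), *Robo1* (0.931) and *Sertad3* (0.929), and for *Homer3* *Ext1* (0.904), *Ccnd1* (0.9) and *Inf2* (0.890). *Grm5* was closest to *Zfp827* (0.934), *Etv1* (0.929) and *Hspa12a* (0.902).

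*Grm7* was nearest to *Tshz2* (0.966), *Cacnb4* (0.945), a calcium channel subunit gene, and *Satb1* (0.939). Among the nearest to *Grm2* were *Kcnc4* (0.924), a potassium channel gene, and *Hlf* (0.916). The neighbours of *Grm4* were *Dbndd1* (0.926), *Mab21l1* (0.914) and *Npy1r* (0.908), the last a receptor for neuropeptide Y, and those of *Grm8* were *Fut9* (0.919), *Tnfrsf10b* (0.916) and *Cd200* (0.908). Among the 18 groups of 6 libraries (9 members in each of the genotypes), 0 held a library set apart from the other 5 by Dixon's ratio at the 95% level, where chance gives about 0.9.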
